A study of Mus musculus with 18 samples.

Results

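The 31 genes described here make, move, store and export cholesterol, and their RNA was measured in the lacrimal glands (LGs) of 2 mouse strains, BALB/c and NOD.H-2b. They were chosen by name from the 54232 genes of the count table, 30 by the symbol in the table and Tm7sf2 by its Ensembl identifier, since its symbol is blank there. By role they are 7 genes of the mevalonate arm, 11 genes of the steps from squalene to cholesterol, 5 genes of sterol sensing, 3 genes of uptake and intracellular transport, the esterifying enzyme Soat1, and 4 genes of the LXR response and export. None of the 31 encodes a lipoprotein receptor.

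Bulk RNA-seq was made from 18 male mice in 6 groups of 3, BALB/cJ controls (BALB/c) and NOD.B10Sn-H2b/J mice (NOD.H-2b) aged 2, 4 or 6 months (2M, 4M, 6M), with 1 LG of 1 mouse per sample. No mouse was treated and none carries a transgene. NOD.H-2b is a model of primary Sjögren's syndrome, an autoimmune disease of tear and salivary glands, and carries the H2b haplotype of C57BL/10SnJ on the NOD background. BALB/c is a separate inbred strain and not the parent of NOD.H-2b, so that strain background and disease cannot be told apart in any comparison of the strains.

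Cholesterol is built from acetyl-CoA through mevalonate and isoprenoid units to squalene, which is closed to lanosterol and trimmed to cholesterol. When the membrane of the endoplasmic reticulum is poor in sterol, Scap carries the SREBP transcription factors, encoded by Srebf1 and Srebf2, to the Golgi, where they are cut and freed to switch on synthesis and uptake genes. When sterol is plentiful, the Insig proteins hold Scap back, and oxysterols turn on the LXR receptors, which raise the export genes Abca1, Abcg1 and Apoe. Surplus cholesterol is stored as esters in lipid droplets, for which macrophages that take up lipid are well known. In a gland that secretes, new membrane is also needed for secretory vesicles.

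Totals ranged from 49480781 to 103936830 counts per mouse. Levels are given in CPM, the counts relative to the library size after TMM scaling over the 18 mice. Strain differences are log2 fold changes of NOD.H-2b over BALB/c with their standard error (SE), from edgeR's quasi-likelihood test on the 6 mice of an age, and a gene is called upregulated or downregulated at a Benjamini-Hochberg adjusted p under 0.05 over all genes tested. The 7 acinar markers, genes of the secretory cells, summed to 71362 to 95236 CPM in BALB/c and 47777 to 71297 in NOD.H-2b, with 0 called upregulated and 3 downregulated at 2M, 1 and 3 at 4M, and 1 and 6 at 6M. None of the 7 was at 0 in any mouse, most of the sum was Scgb2b7, and Lpo was 7373 to 9464 CPM in BALB/c and 2563 to 7241 in NOD.H-2b. The 40 epithelial structure genes summed to 3303 to 3600 CPM in BALB/c at all ages. In NOD.H-2b that sum was 3142 to 3497 CPM at 2M, 2363 to 2900 at 4M and 2023 to 2461 at 6M. The 14 macrophage markers summed to 80.7 to 193 CPM in BALB/c and 266 to 494 in NOD.H-2b, the 8 B cell markers to 0.123 to 2.30 and 0.969 to 419, and the 8 T cell markers to 0.406 to 5.98 and 9.30 to 126. In whole glands, fewer cells of a type and less RNA per cell cannot be told apart.

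To ask which cholesterol genes differ between the strains, the 31 members were compared at each age, and all of them passed the filter on low counts at 2M, 4M and 6M. In NOD.H-2b, Npc1, Npc2 and Stard4 of uptake and intracellular transport, Soat1, and the LXR and export genes other than Abca1 were upregulated. Abca1 was called upregulated at 4M and 6M only when scaled to epithelial genes. Synthesis and sensing genes were split in direction. At 2M, 15 members were upregulated and 6 downregulated, which is 48.4% and 19.4% of the members, against 22.5% and 17.2% of all 17200 genes tested. At 4M, 13 were upregulated and 10 downregulated, or 41.9% and 32.3%, against 23.4% and 19.2% of 17722 genes. At 6M the counts were 12 and 10, or 38.7% and 32.3%, against 28.6% and 25.8% of 17750 genes. With TMM scaling, the share of upregulated members was thus above that of all genes at each age. The downregulated share was near it at 2M, above it at 4M and less so at 6M, and these shares were not tested. With scaling to epithelial genes (described at the end) 1 member was downregulated at 4M and 3 at 6M, where 996 of 17722 and 1138 of 17750 genes were. Upregulated were then 18 of the 31 members at 4M and 16 at 6M, where 8595 of 17722 and 10137 of 17750 genes were. Under that scaling the upregulated share of the members was below that of all genes at 6M. In order of age the members had median log2 fold changes of 0.25, 0.12 and 0.20, against 0.01 over all genes at 2M and less than 0.01 from 0 at 4M and 6M. A change of at least 2-fold was called for 8 upregulated members at 2M, 6 at 4M and 8 at 6M, against 12.0%, 15.6% and 18.8% of all genes, and for 0, 0 and 1 downregulated members, the last being Srebf1, against 3.76%, 4.72% and 6.03%.

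Upregulated at all 3 ages were 11 members, namely Pmvk, Fdft1, Sqle, Hsd17b7, Npc1, Npc2, Stard4, Soat1, Nr1h3, Abcg1 and Apoe. Over all genes tested at the 3 ages, 15.0% of 16703 met that rule. The 5 members downregulated at all ages were Hmgcs1, Lss, Ebp, Sc5d and Srebf1, with 11.5% of all genes meeting the rule. Insig2 was called in both directions, and Abca1, Idi1, Msmo1, Nsdhl and Tm7sf2 were not called at any age. With all 18 mice in 1 fit, the strain difference averaged over the ages was called for 27 members, 15 up and 12 down, where 32.5% and 33.1% of 19117 genes were called. At least 2-fold differences made up 9 of the 27, against 22.8% of all genes.

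**Figure D1:**
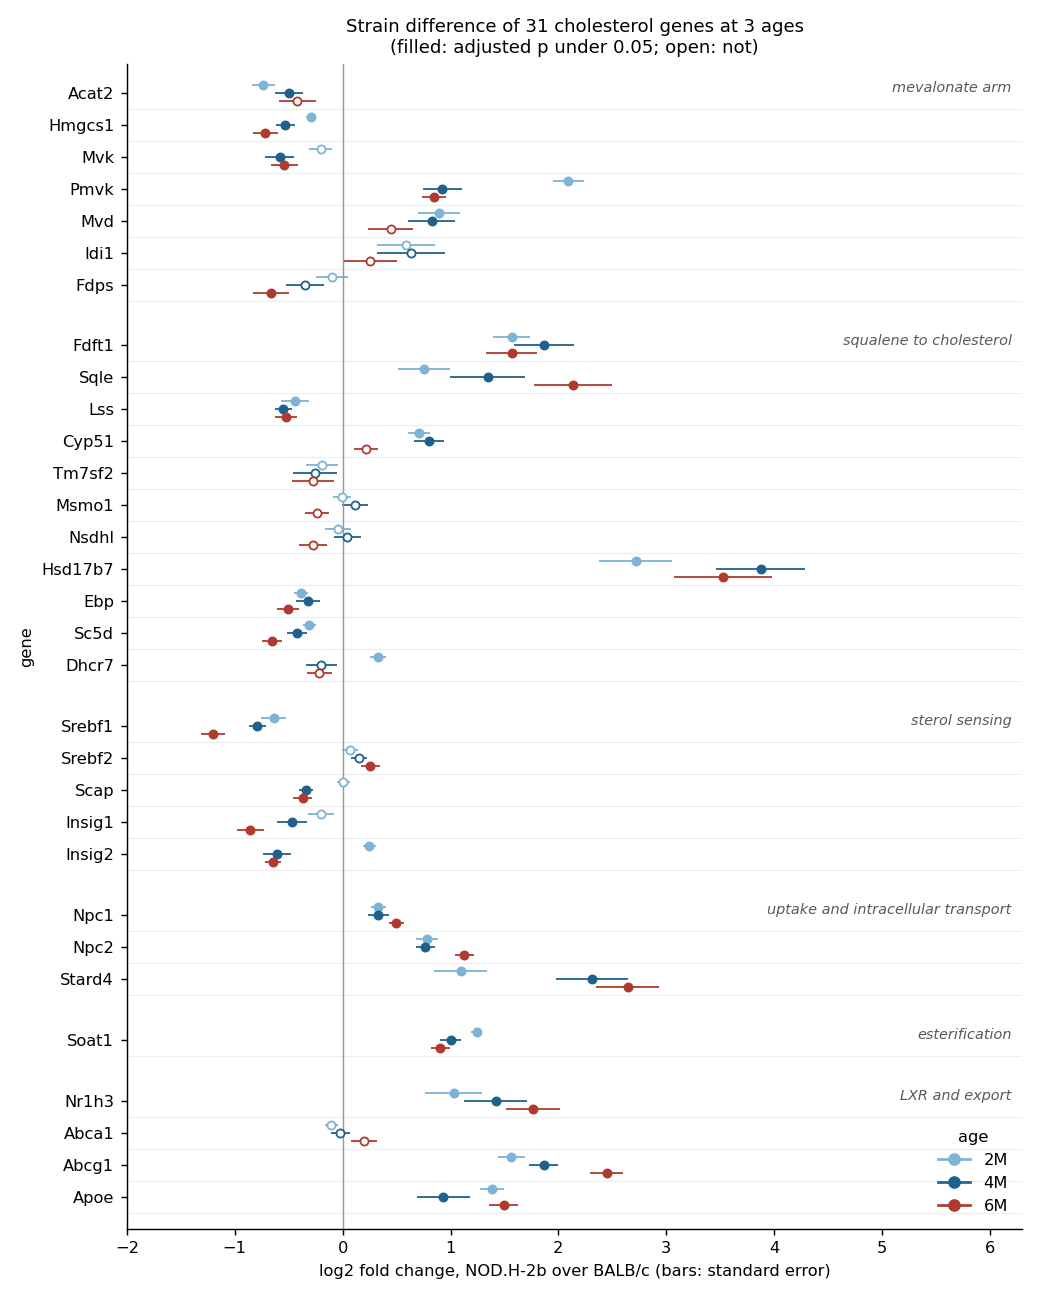
Strain difference of the 31 members at 2M, 4M and 6M, grouped by role. The horizontal axis is the log2 fold change of NOD.H-2b over BALB/c, points are estimates from 3 mice per strain, bars are standard errors, and filled points have an adjusted p under 0.05. Npc1, Npc2, Stard4, Soat1 and the LXR and export genes lie to the right of 0 with the exception of Abca1, and synthesis genes lie on both sides. These are TMM values, and with epithelial scaling the sign turns for Scap at 2M, for Abca1, Dhcr7, Ebp, Fdps, Scap and Tm7sf2 at 4M, and for Acat2, Dhcr7, Ebp, Msmo1, Nsdhl, Scap and Tm7sf2 at 6M.

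The mevalonate arm held members of both directions. Of its 7 genes, 2 were upregulated and 2 downregulated at 2M, 2 and 3 at 4M, and 1 and 3 at 6M. Over all genes tested these shares were 22.5% and 17.2% at 2M, 23.4% and 19.2% at 4M, and 28.6% and 25.8% at 6M. Pmvk (chr3:89454541-89469013 in GRCm38), the kinase that phosphorylates phosphomevalonate, stood at 5.58, 6.27 and 4.97 CPM in the 3 BALB/c mice of 2M and at 24.2, 18.8 and 26.7 in NOD.H-2b. At 4M Pmvk was 6.34, 5.73 and 7.59 CPM in BALB/c and 11.0, 10.3 and 16.0 in NOD.H-2b. The 6M mice gave 6.06, 5.62 and 6.90 CPM and 10.7, 10.7 and 11.3. All NOD.H-2b mice lay above all BALB/c mice at each age, and the NOD.H-2b mice of 2M stood above those of 4M and 6M. The log2 fold change of Pmvk was 2.09 ± 0.14 (SE, adjusted p = 6.67e-06) at 2M, 0.92 ± 0.18 (SE, adjusted p = 0.00283) at 4M and 0.85 ± 0.11 (SE, adjusted p = 1.23e-04) at 6M.

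Hmgcs1 (chr13:119690379-119708260), the synthase that joins acetyl-CoA and acetoacetyl-CoA ahead of mevalonate, had the highest level per length of the synthesis genes. It stood at 109, 109 and 113 CPM in BALB/c and 85.1, 87.9 and 89.0 in NOD.H-2b at 2M. At 4M the values were 90.1, 107 and 84.2 CPM and 63.7, 64.5 and 65.4. At 6M they were 106, 111 and 100.4 CPM and 52.1, 71.6 and 64.7. The NOD.H-2b mice were lower than every BALB/c mouse of their age. The NOD.H-2b mouse with the lowest value, replicate 1 of 6M, had the highest macrophage sum (494 CPM) and the lowest epithelial structure sum (2023 CPM). Hmgcs1 was downregulated by -0.29 ± 0.05 (SE, adjusted p = 3.86e-04), -0.53 ± 0.09 (SE, adjusted p = 9.29e-04) and -0.71 ± 0.11 (SE, adjusted p = 5.15e-04) on the log2 scale at 2M, 4M and 6M. With scaling to epithelial genes its values at 4M and 6M were -0.13 (edgeR adjusted p = 0.32) and -0.21 (adjusted p = 0.0374), so that the 4M call was lost.

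Of the other enzymes of this arm, Acat2, which makes acetoacetyl-CoA, was downregulated at 2M (-0.73 ± 0.11 (SE, adjusted p = 2.59e-04)) and 4M (-0.50 ± 0.13 (SE, adjusted p = 0.011)) and not called at 6M (-0.42 ± 0.17 (SE, adjusted p = 0.0616)). Mvk, mevalonate kinase, was downregulated at 4M (-0.58 ± 0.14 (SE, adjusted p = 0.00644)) and 6M (-0.54 ± 0.12 (SE, adjusted p = 0.00425)) but not at 2M (-0.20 ± 0.11 (SE, adjusted p = 0.159)). Mvd, which makes the first isoprenoid unit from mevalonate, was upregulated at 2M (0.89 ± 0.20 (SE, adjusted p = 0.00363)) and 4M (0.83 ± 0.22 (SE, adjusted p = 0.0122)), with 0.44 ± 0.21 (SE, adjusted p = 0.102) at 6M. Fdps, which builds farnesyl units, was downregulated only at 6M among the 3 ages (-0.66 ± 0.17 (SE, adjusted p = 0.00746)), and the change of its strain difference from 2M to 6M was not called (-0.56 ± 0.23 (SE, adjusted p = 0.102)). Idi1, the isomerase of isoprenoid units, gave log2 fold changes of 0.59, 0.64 and 0.26 that were not called. Fdps and Idi1 have pseudogene copies of at least 98% identity and Acat2 shares 445 bases with Tcp1 at 98.7% identity, so their counts are uncertain where reads could be placed on either. With scaling to epithelial genes, the downward calls of Acat2 and Mvk at 4M and of Mvk and Fdps at 6M were lost.

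From squalene to cholesterol, upregulated and downregulated enzymes stood side by side. Of the 11 genes, 5 were upregulated and 3 downregulated at 2M, 4 and 3 at 4M, and 3 and 3 at 6M. Among all genes, 22.5% and 17.2% were at 2M and 23.4% and 19.2% at 4M. The 6M counts were near the 28.6% and 25.8% of all genes. Fdft1 (chr14:63145150-63179578), squalene synthase, stood at 1.28, 1.06 and 1.11 CPM in BALB/c and 3.25, 3.38 and 3.30 in NOD.H-2b at 2M. At 4M Fdft1 was 0.682, 0.488 and 1.03 CPM and 2.78, 2.70 and 2.60, and at 6M 0.837, 0.916 and 0.585 CPM and 2.51, 2.35 and 1.96. The strains did not overlap at any age. Its log2 fold change was 1.57 ± 0.17 (SE, adjusted p = 2.96e-05) at 2M, 1.87 ± 0.27 (SE, adjusted p = 4.80e-04) at 4M and 1.57 ± 0.24 (SE, adjusted p = 3.51e-04) at 6M. On the other strand Fdft1 shares 774 exon bases with Ctsb, a lysosomal protease that was itself upregulated (log2 fold change 1.08, 0.94 and 1.16, adjusted p = 1.11e-07, 5.53e-05 and 3.09e-06). Ctsb held 2819 to 5931 counts in BALB/c and 6962 to 11943 in NOD.H-2b, the strand setting of the counting is not given in the sources used here, and the part of Ctsb reads in the Fdft1 counts was not tested.

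Sqle (chr15:59315077-59331192), squalene epoxidase, was 1.07, 1.31 and 0.882 CPM in BALB/c and 2.17, 1.45 and 1.73 in NOD.H-2b at 2M. At 4M it was 0.793, 0.366 and 0.940 CPM and 2.07, 1.96 and 1.32, and at 6M 0.687, 0.341 and 0.234 CPM and 2.12, 1.52 and 2.14. The groups were separate at each age and closest at 2M. Sqle was upregulated by 0.75 ± 0.24 (SE, adjusted p = 0.0275), 1.34 ± 0.35 (SE, adjusted p = 0.011) and 2.13 ± 0.36 (SE, adjusted p = 7.05e-04), and the growth of this difference from 2M to 6M missed the threshold (1.39 ± 0.48 (SE, adjusted p = 0.0558)). The 2M call was lost without BALB/c 2M replicate 1 or 3 or NOD.H-2b 2M replicate 1 or 3, with log2 fold changes of 0.58 to 0.76.

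Hsd17b7 (chr1:169949535-169969241), the keto reductase that completes removal of the methyl groups, had the largest fold change of the 31 members at each age. It was counted with 4 to 20 reads per mouse in BALB/c and 66 to 236 in NOD.H-2b, that is 0.287, 0.144 and 0.194 CPM against 1.59, 1.37 and 1.04 at 2M. At 4M its level was 0.0737, 0.163 and 0.149 CPM against 2.74, 1.55 and 1.42, and at 6M 0.118, 0.426 and 0.117 CPM against 3.08, 1.91 and 2.07. Every NOD.H-2b mouse exceeded every BALB/c mouse. The log2 fold change was 2.71 ± 0.34 (SE, adjusted p = 8.25e-05) at 2M (6.57-fold), 3.87 ± 0.41 (SE, adjusted p = 7.75e-05) at 4M (14.7-fold) and 3.53 ± 0.46 (SE, adjusted p = 1.61e-04) at 6M (11.5-fold).

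The remaining enzymes of these steps had log2 fold changes between -0.65 and 0.80. Cyp51, the lanosterol demethylase, was upregulated at 2M (0.71 ± 0.10 (SE, adjusted p = 2.28e-04)) and 4M (0.80 ± 0.14 (SE, adjusted p = 0.00121)) and gave 0.22 ± 0.11 (SE, adjusted p = 0.117) at 6M. Cyp51 shares 166 exon bases with Akap9 on the other strand, which held 14701 to 31371 counts in BALB/c. Akap9 was itself called by edgeR at 2M (0.12, adjusted p = 0.0469) but not at 4M or 6M. The part of Akap9 reads in the Cyp51 counts was not tested. Downregulated at every age were Lss, which closes the sterol rings (-0.44 ± 0.13, -0.55 ± 0.08 and -0.52 ± 0.10), Ebp, the sterol isomerase (-0.39 ± 0.06, -0.32 ± 0.11 and -0.50 ± 0.10), and Sc5d, the sterol desaturase (-0.31 ± 0.06, -0.42 ± 0.10 and -0.65 ± 0.09). Sc5d was 28.4, 24.3 and 27.9 CPM in BALB/c and 16.0, 18.1 and 16.0 in NOD.H-2b at 6M, with no overlap (adjusted p = 2.58e-04). Dhcr7, the reductase of the last steps, was upregulated at 2M (0.33 ± 0.07 (SE, adjusted p = 0.00413), or 0.29 and not called in 1 fit of all 18 mice) and had the opposite sign without a call at 4M (-0.20 ± 0.14) and 6M (-0.22 ± 0.12). Msmo1, Nsdhl and Tm7sf2, which act between lanosterol and the later sterols, had log2 fold changes between -0.28 and 0.12 and were not called at any age. Tm7sf2 shares exon bases with Vps51 on the same strand, so that its counts are uncertain. With scaling to epithelial genes the 4M and 6M calls of Lss, Ebp and Sc5d were lost, Lss giving -0.15 and -0.0079, Ebp 0.068 and 0.0074, and Sc5d -0.03 and -0.14. The Lss call at 2M was lost without NOD.H-2b replicate 1 or any 1 BALB/c mouse of 2M, and the Ebp call at 4M without any 1 mouse of 4M other than NOD.H-2b replicate 3.

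Per kilobase of exon, Hmgcs1 was the most abundant synthesis RNA in all 6 groups (24.0 ± 0.511 CPM per kb in BALB/c at 2M, SD, n = 3). In BALB/c of 2M it was followed by Ebp (9.11 ± 0.385), Sc5d (5.45 ± 0.0888), Acat2 (3.51 ± 0.180) and Pmvk (3.27 ± 0.377), the last pair within each other's spread. Hsd17b7 was lowest in BALB/c at 2M (0.0408 ± 0.0142), with Sqle (0.196 ± 0.0387) and Fdft1 (0.272 ± 0.0274) near the bottom. In NOD.H-2b of 2M, Pmvk (13.6 ± 2.38) came next after Hmgcs1 (19.0 ± 0.438), and Hsd17b7 (0.261 ± 0.0548), Sqle (0.321 ± 0.0657) and Idi1 (0.357 ± 0.0493) were the lowest. Hsd17b7, Sqle and Fdft1, upregulated at all ages, were thus among the least abundant of the pathway in BALB/c at 2M, whereas Pmvk, with the largest fold change at 2M after Hsd17b7, was among the more abundant. Of the most abundant, Hmgcs1, Ebp and Sc5d were downregulated at 2M under both scalings.

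**Figure D2:**
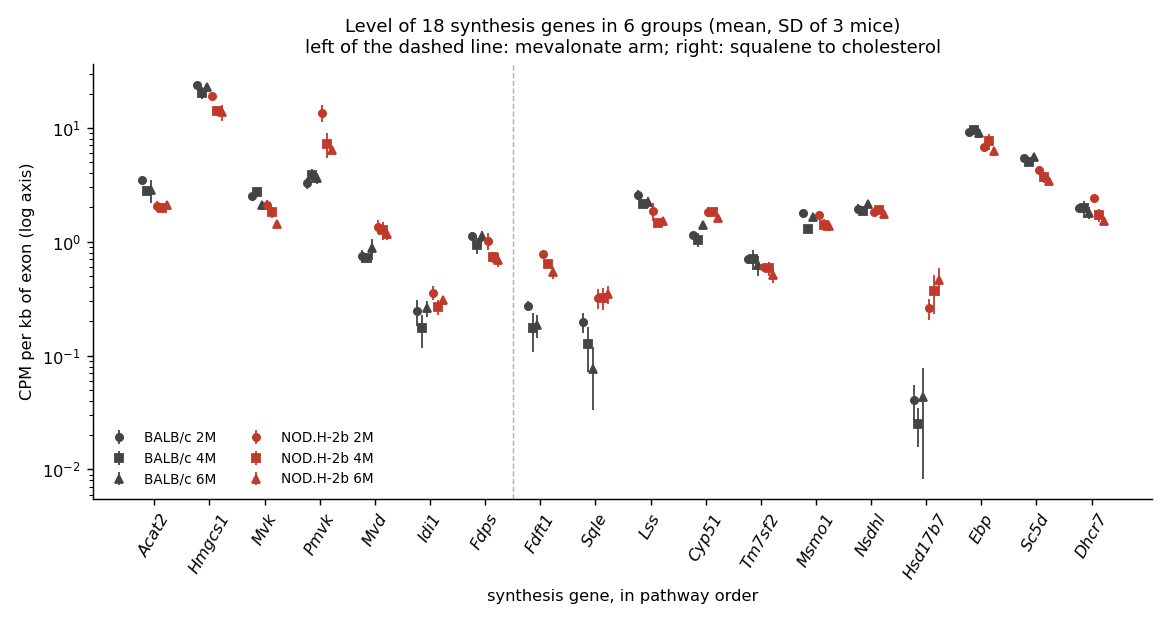
Level of the 18 synthesis genes in pathway order. The vertical axis is CPM per kilobase of exon on a log scale, points are means and bars the SD of 3 mice, with circles, squares and triangles for 2M, 4M and 6M. Hmgcs1 is highest in all 6 groups, and the strains lie furthest apart at Hsd17b7.

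The synthesis genes are textbook targets of the SREBPs, which bind a sterol regulatory element beside a CCAAT box held by NF-Y. The stretch before the start site is printed for 4 of them that differ in direction, Hmgcs1 and Mvk on the downregulated and Pmvk and Hsd17b7 on the upregulated side, from RefSeq on GRCm38.p6. Capitals mark the sterol element TCACNCCAC, the NF-Y box CCAAT and the E-box CACGTG, searched as written and as the reverse complement, so that an NF-Y box of the other strand reads ATTGG. Each stretch ends at the GENCODE gene boundary where that lies ahead of the RefSeq start. The marked motifs do not overlap in these 4 stretches.
Hmgcs1, chr13:119690101-119690350, plus strand: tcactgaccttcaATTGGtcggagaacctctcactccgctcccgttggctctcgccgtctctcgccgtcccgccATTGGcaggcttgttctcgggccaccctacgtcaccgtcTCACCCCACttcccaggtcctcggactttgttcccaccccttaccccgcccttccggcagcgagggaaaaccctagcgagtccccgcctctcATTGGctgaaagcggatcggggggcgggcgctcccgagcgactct
Mvk, chr5:114444019-114444268, plus strand: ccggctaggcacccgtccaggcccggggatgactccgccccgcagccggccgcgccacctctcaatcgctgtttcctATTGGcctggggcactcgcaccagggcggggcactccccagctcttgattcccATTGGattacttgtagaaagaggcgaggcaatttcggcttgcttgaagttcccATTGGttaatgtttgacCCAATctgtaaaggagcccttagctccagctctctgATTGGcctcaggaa
Pmvk, chr3:89454291-89454540, plus strand: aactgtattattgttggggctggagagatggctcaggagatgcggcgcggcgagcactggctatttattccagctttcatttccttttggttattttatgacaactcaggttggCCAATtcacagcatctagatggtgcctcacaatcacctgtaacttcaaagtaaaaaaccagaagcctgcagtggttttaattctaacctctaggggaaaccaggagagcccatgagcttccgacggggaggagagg
Hsd17b7, chr1:169969242-169969455, minus strand: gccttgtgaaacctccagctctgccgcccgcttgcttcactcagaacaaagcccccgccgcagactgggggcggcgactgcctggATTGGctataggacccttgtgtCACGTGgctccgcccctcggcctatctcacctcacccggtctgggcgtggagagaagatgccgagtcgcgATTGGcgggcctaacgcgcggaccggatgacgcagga
Hmgcs1 holds 1 sterol element, 137 bases before its start, with 3 NF-Y boxes around it. In the bases printed, Mvk holds 5 NF-Y boxes, Pmvk 1, and Hsd17b7 2 with 1 E-box. A further NF-Y box of Hsd17b7, 12 bases before its RefSeq start, lies past the end of the printed stretch. Of the 31 members, 25 had a promoter in the RefSeq table, with 36 windows from 250 bases before to 50 bases after a start. Abcg1, Fdft1, Fdps, Npc1, Sqle and Stard4 had none. An NF-Y box was found in 21 of the 36 windows (58.3%), against 37.4% of all 32817 windows. The E-box was in 7 windows of 6 members (19.4% of windows, against 7.15%), as overlapping windows of Scap hold the same site. The sterol element was in 1 window (2.78%, against 1.24%), while the LXR element, a direct repeat of the nuclear receptor site, was in 0 windows (0.0152% of all). A match of letters describes the window only, and whether any factor binds there was not measured.

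Sterol sensing genes were mostly downregulated at 4M and 6M, of which, with scaling to epithelial genes (described at the end), Srebf1 alone stayed downregulated at 4M and Srebf1 and Insig1 at 6M. Of the 5 genes, 1 was upregulated and 1 downregulated at 2M, 0 and 4 at 4M, and 1 and 4 at 6M. All genes gave 22.5% and 17.2% at 2M, 23.4% and 19.2% at 4M, and 28.6% and 25.8% at 6M. Srebf1 (chr11:60199089-60222581), which encodes SREBP1, the form that also drives fatty acid synthesis, was 157, 133 and 147 CPM in BALB/c and 105, 76.4 and 91.7 in NOD.H-2b at 2M. At 4M it was 169, 192 and 178 CPM and 95.3, 103 and 112, and at 6M 216, 191 and 164 CPM and 73.1, 82.3 and 87.1. No NOD.H-2b mouse reached the lowest BALB/c mouse of its age. The log2 fold change of Srebf1 was -0.64 ± 0.11 (SE, adjusted p = 0.00408) at 2M, -0.79 ± 0.08 (SE, adjusted p = 5.97e-05) at 4M and -1.20 ± 0.11 (SE, adjusted p = 1.58e-05) at 6M. Srebf2, whose protein SREBP2 is the main activator of cholesterol genes, ranged from 37.5 to 46.5 CPM in BALB/c and 40.0 to 51.5 in NOD.H-2b, and was called only at 6M of the 3 ages (0.26 ± 0.08 (SE, adjusted p = 0.0259)), a call lost without BALB/c replicate 2 or NOD.H-2b replicate 1 or 3.

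Insig2 (chr1:121304353-121332589), 1 of the pair of genes whose proteins retain Scap, turned its direction. It was 44.5, 39.5 and 40.6 CPM in BALB/c and 47.2, 48.5 and 48.1 in NOD.H-2b at 2M. At 4M the values were 47.8, 63.9 and 52.0 CPM and 31.7, 40.6 and 34.6, and at 6M 47.5, 48.1 and 54.8 CPM and 30.1, 32.1 and 31.5. The NOD.H-2b mice lay above BALB/c at 2M and below it at 4M and 6M, without overlap. The strain difference of Insig2 was 0.25 ± 0.06 (SE, adjusted p = 0.00461) at 2M, -0.61 ± 0.13 (SE, adjusted p = 0.00465) at 4M and -0.65 ± 0.08 (SE, adjusted p = 7.64e-05) at 6M. In 1 fit of all 18 mice the 2M value was 0.21 and was not called (adjusted p = 0.105). Insig1, the other retention gene, was 50.8, 41.1 and 35.5 CPM in BALB/c and 22.7, 24.3 and 21.8 in NOD.H-2b at 6M. It was not called at 2M (-0.20 ± 0.12) and was downregulated at 4M (-0.47 ± 0.14 (SE, adjusted p = 0.0245)) and 6M (-0.86 ± 0.13 (SE, adjusted p = 3.71e-04)), the 4M call being lost without any 1 mouse of 4M other than BALB/c replicate 3. Scap, the escort of the SREBPs, stood at 76.0, 72.8 and 82.8 CPM in BALB/c and 73.6, 71.5 and 80.8 in NOD.H-2b at 2M (0.01 ± 0.06, not called) and was downregulated at 4M (-0.34 ± 0.07 (SE, adjusted p = 0.00238)) and 6M (-0.37 ± 0.09 (SE, adjusted p = 0.00566)).

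The members of uptake and intracellular transport, Npc1, Npc2 and Stard4, move sterol within the cell. All 3 were upregulated at each age, where 15.0% of all genes were. Stard4, which carries sterol between membranes and whose gene is itself under SREBP control, was 0.822, 0.574 and 0.776 CPM in BALB/c and 1.31, 1.54 and 1.65 in NOD.H-2b at 2M. At 4M it was 0.553, 0.386 and 0.969 CPM and 4.09, 2.86 and 2.64, and at 6M 0.708, 0.746 and 0.351 CPM and 4.68, 2.85 and 3.72. The NOD.H-2b mice were higher throughout, and those of 4M and 6M stood above those of 2M. Stard4 was upregulated by 1.09 ± 0.25 (SE, adjusted p = 0.00415), 2.31 ± 0.33 (SE, adjusted p = 4.56e-04) and 2.64 ± 0.29 (SE, adjusted p = 4.64e-05).

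The lysosomal pair that frees cholesterol from ingested lipoprotein was upregulated at each age. Npc2 (chr12:84754562-84773152), the soluble carrier, was 14.9, 18.3 and 14.7 CPM in BALB/c and 24.7, 29.6 and 25.9 in NOD.H-2b at 2M, and 18.6, 19.2 and 16.6 and 42.2, 36.7 and 37.3 at 6M. Its log2 fold change was 0.78 ± 0.10 (SE, adjusted p = 1.72e-04), 0.77 ± 0.09 (SE, adjusted p = 1.39e-04) and 1.13 ± 0.09 (SE, adjusted p = 4.67e-06) at 2M, 4M and 6M. Npc1, the membrane protein to which Npc2 hands its cargo, ranged from 20.98 to 24.6 CPM over the 9 BALB/c mice and from 26.3 to 32.6 over the 9 NOD.H-2b mice. These ranges did not overlap, and Npc1 was upregulated by 0.33 ± 0.07 (SE, adjusted p = 0.00261), 0.33 ± 0.10 (SE, adjusted p = 0.0183) and 0.50 ± 0.07 (SE, adjusted p = 2.40e-04), the 4M call being lost without BALB/c 4M replicate 1 or 2. Npc1 shares exon bases with Rmc1 on the other strand, and Rmc1 itself was not called at any age.

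Soat1 (chr1:156424525-156474331), the enzyme that turns cholesterol into its esters, was 130.3, 124 and 120.2 CPM in BALB/c and 292, 290.3 and 278 in NOD.H-2b at 2M. At 4M the values were 141, 138 and 112 CPM and 259.7, 273 and 247, and at 6M 140.5, 129.6 and 143 CPM and 228, 266 and 260.5. The lowest NOD.H-2b mouse stood at 228 CPM and the highest BALB/c mouse at 143. Soat1 was upregulated by 1.24 ± 0.05 (SE, adjusted p = 7.19e-09) at 2M, 1.00 ± 0.09 (SE, adjusted p = 3.78e-05) at 4M and 0.90 ± 0.09 (SE, adjusted p = 2.15e-05) at 6M, and the smaller difference at 6M than at 2M was not called (-0.33 ± 0.11 (SE, adjusted p = 0.0541)).

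**Figure D3:**
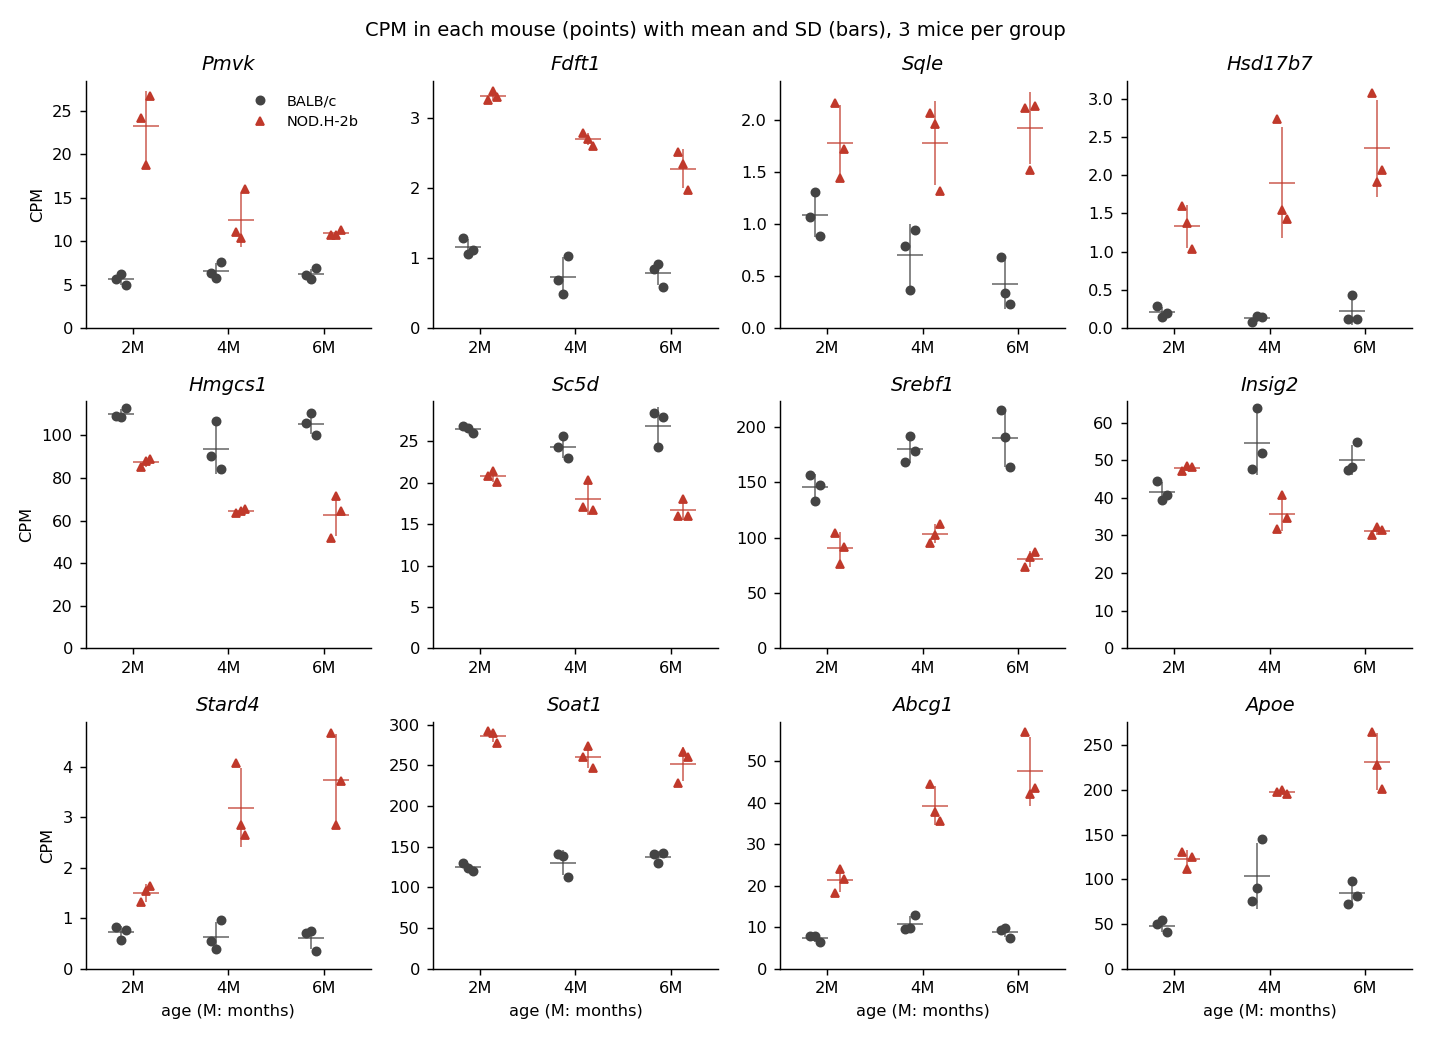
CPM of 12 members in each of the 18 mice, against age. Points are mice (circles BALB/c, triangles NOD.H-2b), horizontal marks are means and vertical bars the SD of 3 mice, on linear axes from 0. In these panels the strains do not overlap at any age, and Insig2 changes side between 2M and 4M.

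The LXR and export genes were upregulated in 3 of 4 cases at each age, where 22.5%, 23.4% and 28.6% of all genes were. Nr1h3 (chr2:91184061-91202834), the LXR alpha receptor that responds to oxysterols, was 0.764, 0.556 and 0.899 CPM in BALB/c and 1.22, 1.49 and 1.70 in NOD.H-2b at 2M, and 0.966, 0.767 and 1.03 and 4.01, 2.28 and 2.91 at 6M. Its log2 fold change was 1.03 ± 0.26 (SE, adjusted p = 0.00889), 1.42 ± 0.29 (SE, adjusted p = 0.00311) and 1.77 ± 0.25 (SE, adjusted p = 2.25e-04). Abcg1 (chr17:31057675-31117988), which exports cholesterol to HDL and lies on the chromosome of the H2 complex, was 7.95, 7.97 and 6.40 CPM and 18.3, 24.1 and 21.7 at 2M. At 4M it was 9.64, 9.87 and 13.0 CPM in BALB/c and 44.5, 37.7 and 35.7 in NOD.H-2b, and at 6M 9.44, 9.91 and 7.37 CPM and 56.9, 42.1 and 43.5. Strains were separate at each age, and the NOD.H-2b mice of 4M and 6M exceeded those of 2M. Abcg1 was upregulated by 1.56 ± 0.12 (SE, adjusted p = 8.09e-06), 1.86 ± 0.13 (SE, adjusted p = 1.27e-05) and 2.45 ± 0.15 (SE, adjusted p = 2.09e-06).

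Apoe (chr7:19696109-19699188), the apolipoprotein secreted with cholesterol by macrophages, was 49.7, 54.2 and 40.9 CPM in BALB/c and 131, 111 and 125 in NOD.H-2b at 2M. At 4M it was 76.2, 90.1 and 145 CPM and 197, 200.1 and 195, and at 6M 72.8, 98.2 and 81.7 CPM and 265, 228 and 201. NOD.H-2b was higher without overlap, and BALB/c replicate 3 of 4M stood above the other BALB/c mice, as did its macrophage sum of 193 CPM. The T cell sum of that mouse (5.98 CPM) was also the highest in BALB/c, and its acinar sum (71362 CPM) the lowest. Apoe was upregulated by 1.38 ± 0.11 (SE, adjusted p = 5.56e-05), 0.93 ± 0.25 (SE, adjusted p = 0.0297) and 1.49 ± 0.13 (SE, adjusted p = 1.38e-05), and the 4M call was lost without BALB/c replicate 2, without any 1 NOD.H-2b mouse of 4M, or with no filter on low counts. Abca1 (chr4:53030787-53159895), the pump that loads cholesterol onto apolipoprotein A-I and the other textbook LXR target, was 150.2, 148 and 145 CPM in BALB/c and 129.8, 145 and 126 in NOD.H-2b at 2M. At 6M Abca1 was 199, 211 and 159 CPM and 238, 200.1 and 201. The strains overlapped at every age, with log2 fold changes of -0.10 ± 0.06 (SE, adjusted p = 0.182), -0.02 ± 0.09 (SE, adjusted p = 0.864) and 0.20 ± 0.12 (SE, adjusted p = 0.183).

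Markers of macrophages were also higher in NOD.H-2b. Of the 14 markers, 12 were upregulated at 2M and 10 at both 4M and 6M, where Cd163 was downregulated, and none of Adgre1, Cd68 and Csf1r was at 0 in any mouse. The sum was 80.7 to 110 CPM in BALB/c and 266 to 286 in NOD.H-2b at 2M, 128 to 193 and 393 to 406 at 4M, and 119 to 151 and 378 to 494 at 6M. Their part in the strain difference of Soat1, Npc2, Nr1h3, Abcg1, Apoe and Stard4 was not tested. Within NOD.H-2b, Soat1 stood at 278 to 292 CPM at 2M and 228 to 266 at 6M, the opposite order of the macrophage sum. Npc2, Nr1h3, Abcg1, Apoe and Stard4 were higher at 6M than at 2M, the same order as the macrophage sum. From 2M to 6M the B cell and T cell sums rose as well, and the epithelial structure and acinar sums fell. The 6M mouse with the highest macrophage sum (494 CPM) had the lowest Soat1 value. It also had the highest 6M value of Npc2 (42.2 CPM), Nr1h3 (4.01), Abcg1 (56.9), Apoe (265) and Stard4 (4.68). This mouse had the highest 6M sums of B cell (419 CPM) and T cell (112 CPM) markers too. Its epithelial structure (2023 CPM) and acinar (47777 CPM) sums were the lowest at 6M, and the part of each sum was not tested.

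Next, the change of the strain difference with age was tested in the fit of 18 mice. From 2M to 6M it was called for 10 members (32.3%, against 16.1% of 19117 genes), 2 toward NOD.H-2b and 8 toward BALB/c, where 7.04% and 9.09% of all genes were called. The log2 difference of Stard4 grew by 1.56 ± 0.44 (SE, adjusted p = 0.0231) and that of Abcg1 by 0.89 ± 0.22 (SE, adjusted p = 0.0153). It fell for Pmvk (-1.24 ± 0.23 (SE, adjusted p = 0.00287)), Insig2 (-0.89 ± 0.14 (SE, adjusted p = 0.00105)), Insig1 (-0.65 ± 0.21 (SE, adjusted p = 0.0498)), Srebf1 (-0.55 ± 0.16 (SE, adjusted p = 0.0266)), Dhcr7 (-0.54 ± 0.17 (SE, adjusted p = 0.035)), Cyp51 (-0.48 ± 0.15 (SE, adjusted p = 0.0374)), Hmgcs1 (-0.41 ± 0.13 (SE, adjusted p = 0.0383)) and Scap (-0.37 ± 0.11 (SE, adjusted p = 0.0255)). From 2M to 4M only Pmvk (-1.13 ± 0.22 (SE, adjusted p = 0.0175)) and Insig2 (-0.82 ± 0.14 (SE, adjusted p = 0.00585)) were called among the 31, where 1.67% of all genes were. Changes of at least 2-fold were called for 2 members from 2M to 6M, Pmvk and Stard4, against 5.11% of all genes, and for Pmvk alone from 2M to 4M, against 0.69%. The count for 2M to 6M depended on single mice, with 3 without NOD.H-2b 6M replicate 1, 4 without NOD.H-2b 2M replicate 1 or 3, and 6 without NOD.H-2b 6M replicate 3. Pmvk, Insig2 and Abcg1 kept their call without any 1 mouse. With scaling to epithelial genes, Pmvk (-0.65), Stard4 (2.16) and Abcg1 (1.48) were still called, and Insig2 (-0.31) and Insig1 (-0.07) were not. Hmgcs1, Cyp51, Dhcr7, Srebf1 and Scap then had values of 0.03 to 0.20, the other sign. The median of all genes was 0.55 under that scaling, above these values, with 8586 of 19117 genes called upward and 180 downward.

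Within strains, NOD.H-2b accounted for more of the calls over age than BALB/c, although counts of calls in the strains were not tested against each other. From 2M to 6M in NOD.H-2b, 18 members were called (58.1%, against 40.0% of 18008 genes), 7 up (20.7% of all genes) and 11 down (19.4%), and 4 of them by at least 2-fold (12.5%). Upward were Abcg1 (1.14 ± 0.15 (SE, adjusted p = 0.0016)), Stard4 (1.30 ± 0.21 (SE, adjusted p = 0.00217)), Apoe (0.90 ± 0.11 (SE, adjusted p = 8.98e-04)), Nr1h3, Abca1, Npc2 and Hsd17b7. Downward were Pmvk (-1.11 ± 0.12 (SE, adjusted p = 6.81e-04)), Scap (-0.71 ± 0.10 (SE, adjusted p = 0.00119)), Dhcr7 (-0.70 ± 0.09 (SE, adjusted p = 0.00103)), Insig2, Insig1, Mvk, Fdps, Fdft1, Hmgcs1, Msmo1 and Sc5d. From 2M to 4M in NOD.H-2b, 12 members were called (15.8% of 17763 genes), 6 in each direction (10.3% and 5.48%) and 1 by at least 2-fold (6.6%), and the count was 5 without NOD.H-2b 2M replicate 3 and 7 without replicate 1. Relative to epithelial RNA, Hmgcs1, Fdps, Fdft1, Msmo1 and Sc5d had the opposite sign from 2M to 6M (0.01 to 0.24). The median of all genes in that comparison was then 0.56, above these values. Abca1, which was not called between strains, went up with age in NOD.H-2b (0.53 ± 0.10 (SE, adjusted p = 0.0124) from 2M to 4M).

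In BALB/c, 7 of 30 members tested were called from 2M to 4M, against 11.1% of 16639 genes, 4 up and 3 down (6.1% and 5.01%) and 0 by at least 2-fold (2.37%). Abca1 (0.42 ± 0.05 (SE, adjusted p = 1.75e-04)), Abcg1 (0.55 ± 0.13 (SE, adjusted p = 0.0211)), Npc2 (0.39 ± 0.10 (SE, adjusted p = 0.0271)) and Srebf1 (0.31 ± 0.07 (SE, adjusted p = 0.0119)) went up, and Msmo1 (-0.45 ± 0.09 (SE, adjusted p = 0.00597)), Acat2 (-0.32 ± 0.10 (SE, adjusted p = 0.0489)) and Lss (-0.27 ± 0.07 (SE, adjusted p = 0.0342)) went down. That count was 3 without BALB/c 2M replicate 3 and 4 without replicate 2. From 2M to 6M, 3 of 31 were called, against 5.61% of 16579 genes, 2 up and 1 down (3.48% and 2.13%) and 0 by at least 2-fold (1.68%). They were Apoe (0.80 ± 0.15 (SE, adjusted p = 0.034)), Insig2 (0.26 ± 0.07 (SE, adjusted p = 0.047)) and Scap (-0.32 ± 0.06 (SE, adjusted p = 0.00772)), and the count ran from 1 without BALB/c 2M replicate 1 to 5 without BALB/c 6M replicate 3. Abca1, Abcg1 and Npc2 were called upward between 2M and 4M in BALB/c as well as in NOD.H-2b.

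Between 4M and 6M, edgeR called 0 of 30 members in BALB/c (0.307% of 16622 genes) and 0 of 31 in NOD.H-2b (0.00555% of 18026 genes). At an unadjusted p under 0.05 there were 5 members in BALB/c (Cyp51, Npc2, Msmo1, Scap and Mvk) and 3 in NOD.H-2b (Srebf1, Scap and Mvk). DESeq2 called 1 member in BALB/c, Scap, and 0 in NOD.H-2b.

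Calls of lower levels at 4M and 6M depended on the scaling of the libraries. Of the 39 epithelial structure genes tested, 17 were upregulated and 8 downregulated at 2M, 0 and 23 at 4M, and 2 and 27 at 6M. When libraries were scaled to these genes alone, the median log2 fold change of all genes shifted to -0.04 at 2M, 0.40 at 4M and 0.51 at 6M. Relative to epithelial RNA, the split of members up and down was 15 and 6 at 2M, 18 and 1 at 4M, and 16 and 3 at 6M. It had been 13 and 10 at 4M and 12 and 10 at 6M. All genes also moved, with 3423 up and 3639 down of 17200 at 2M. The counts over all genes were 8595 and 996 of 17722 at 4M, and 10137 and 1138 of 17750 at 6M. Srebf1 was downregulated under both scalings at all ages, and at 6M Hmgcs1 and Insig1 were as well. The 11 members upregulated at all ages stayed upregulated at all ages under this scaling. Since it moves values upward at 4M and 6M, it could hardly remove an upward call at these ages. Lss, Ebp, Sc5d, Scap, Insig2 and Mvk were no longer called downregulated at 4M or 6M, nor were Hmgcs1, Insig1 and Acat2 at 4M or Fdps at 6M, and Ebp and Scap had log2 fold changes of 0.07 and 0.06 at 4M and 0.01 and 0.14 at 6M. Abca1 was then called upregulated at 4M (0.39) and 6M (0.73).

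**Figure D4:**
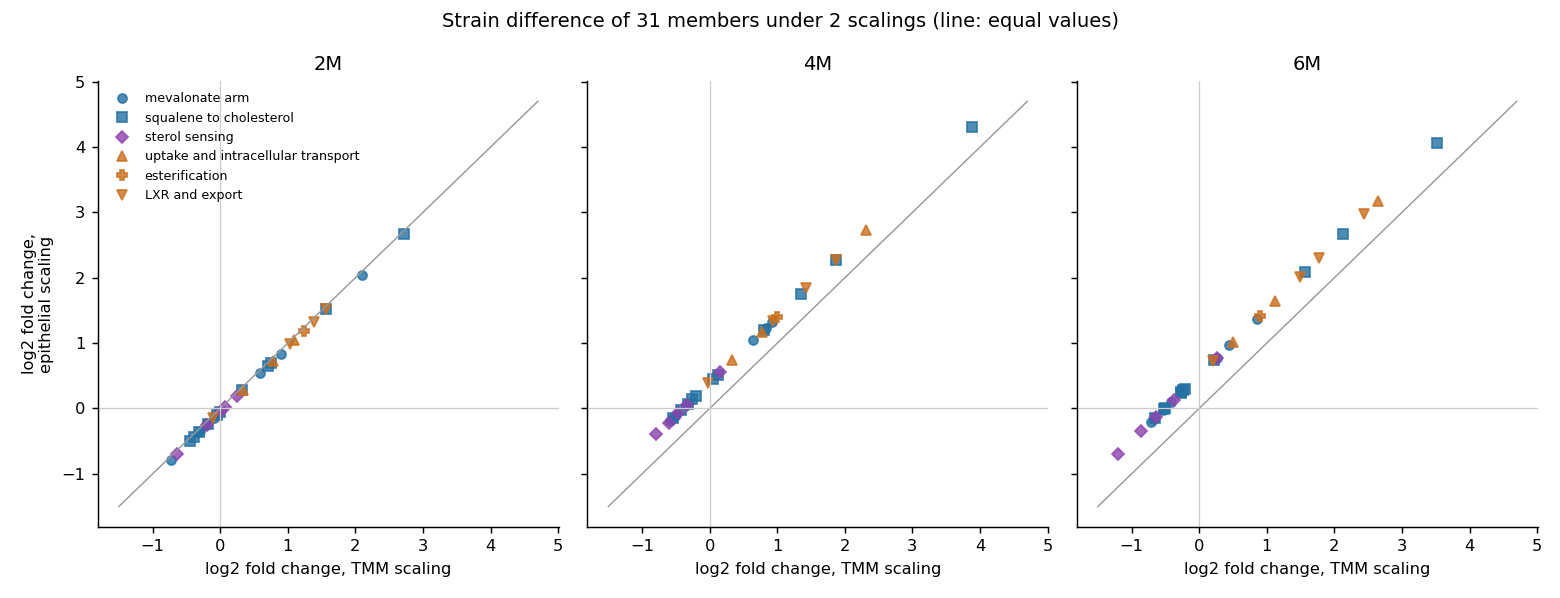
Log2 fold change of the 31 members at 2M, 4M and 6M with TMM scaling (horizontal axis) and with scaling to epithelial structure genes (vertical axis), marked by role. The line marks equal values. Points lie on the line at 2M and above it at 4M and 6M, where members just below 0 on the horizontal axis reach 0 or more on the vertical axis.

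A list of 56 other sterol genes was read beside the members. At 2M, 15 were upregulated and 12 downregulated of 49 tested, where 22.5% and 17.2% of all genes were. At 4M the counts were 11 and 15 of 50 (23.4% and 19.2% of all genes), and at 6M 16 and 16 of 52 (28.6% and 25.8%). Of these genes 10 held each direction at all ages, where 15.0% and 11.5% of all genes did. The 8 genes grouped as lipoprotein receptors went both ways, with 5 upregulated and 2 downregulated at 2M, 2 and 2 at 4M, and 4 and 1 at 6M. Lrp8, an apolipoprotein E receptor, had the largest mean difference (3.66 ± 0.78, 4.75 ± 0.96 and 5.75 ± 0.30), and its level was 0 to 0.358 CPM in BALB/c. Gpr183, the receptor by which oxysterols guide lymphocytes, was upregulated by 2.13 ± 0.36, 3.28 ± 0.27 and 4.10 ± 0.29, and Msr1, a macrophage scavenger receptor, by 3.03 ± 0.29, 2.43 ± 0.27 and 2.14 ± 0.20. Arl4c, an LXR target, gave 1.16 ± 0.12, 1.53 ± 0.23 and 1.92 ± 0.11. Downregulated at every age were Cyp46a1, the cholesterol 24-hydroxylase (-4.39 ± 0.34, -4.55 ± 0.37 and -4.59 ± 0.45), Cyp27a1, the 27-hydroxylase (-0.39 ± 0.06, -0.81 ± 0.10 and -1.17 ± 0.11), the lipid droplet protein Plin3 (-0.49 ± 0.06, -0.96 ± 0.09 and -1.26 ± 0.10) and the oxysterol binding protein gene Osbpl6 (-0.80 ± 0.05, -1.09 ± 0.13 and -0.89 ± 0.11).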

How the data were processed

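Libraries were made from total RNA of whole LGs after removal of ribosomal RNA and read from both ends. Per the labels and the paper's methods, the authors used cutadapt for trimming, STAR for alignment (GRCm38) and HTSeq for counting by Ensembl gene, and the deposited counts are raw whole numbers. The other deposited table, of log2 values after division by a DESeq2 size factor and addition of 1, served as a check only. Reads of both strains were aligned to the same genome. The annotation release, strand setting and treatment of multiple matches are not given in the sources used here. Coordinates and exon lengths are those of GENCODE M21, which names 54079 of the 54232 genes, and 21452 genes had no count.

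Counts were analysed with R 4.3.3, edgeR 4.0.16 (TMM, filterByExpr, robust quasi-likelihood test, Benjamini-Hochberg adjustment over all genes tested), with strains compared on the 6 mice of an age, ages on the 6 mice of a strain, and strain averages and strain by age on all 18. SE was the log2 fold change divided by the root of F. The methods call genes at a false discovery rate under 0.05 and a 2-fold change. Here the 2-fold counts stand beside calls at 0.05 alone. Replicates differed beyond counting error on average over genes (chi-square per gene 17.7 to 91.1). This mean does not describe members with few reads, such as Hsd17b7 with 4 to 20 reads per mouse in BALB/c, where depth also limits precision. Alternatives were DESeq2 1.42.0 (Wald test or size factors), upper quartile scaling, size factors from 40 epithelial structure genes, no filter or at least 10 counts in every sample, the replicate number as a block, other sets of mice, and leaving out each mouse. Shared sequence was searched at 98% identity over at least 150 bases. The edgeR test with TMM was tried on simulated counts of a fixed spread, for the strain comparisons at each age and strain by age from 2M to 6M. The other tests, scalings and searches were not simulated. The members, gene lists and tests were chosen with earlier results of these data known. Named outside the members are, from the list of other sterol genes, at most 4 upregulated and 4 downregulated genes, taken by mean log2 fold change from those called at all ages, the marker genes checked, and genes that overlap a member. The 31 members were all described.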

Additional observations from a re-analysis of the deposited data

Results flagged for a closer look

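The strain difference of 10 members changed between 2M and 6M by the test of the change itself (edgeR's quasi-likelihood test on 18 mice, Benjamini-Hochberg adjustment), and that of 2 members between 2M and 4M. The first count was 3 without NOD.H-2b 6M replicate 1 and 4 without NOD.H-2b 2M replicate 1 or 3. With scaling to epithelial genes, Insig2 (-0.31) and Insig1 (-0.07) lost the call, and Hmgcs1 (0.15), Cyp51 (0.10), Dhcr7 (0.039), Srebf1 (0.027) and Scap (0.20) took the other sign. The median of all genes was then 0.55, above each of these values. The 3 mice a group are too few for a search for single mice that stand apart.

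Stard4, the sterol carrier, widened its difference from 1.09 at 2M to 2.64 at 6M, a change of 1.56 ± 0.44 (SE, adjusted p = 0.0231), higher than every BALB/c mouse in 3 of 3 NOD.H-2b mice at each age. Abcg1, the exporter, went from 1.56 to 2.45, a change of 0.89 ± 0.22 (SE, adjusted p = 0.0153). Pmvk narrowed from 2.09 to 0.85, a change of -1.24 ± 0.23 (SE, adjusted p = 0.00287) from 2M to 6M and -1.13 ± 0.22 (SE, adjusted p = 0.0175) from 2M to 4M, with the drop in the NOD.H-2b mice.

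Insig2 turned from higher to lower, with a change of -0.89 ± 0.14 (SE, adjusted p = 0.00105) from 2M to 6M and -0.82 ± 0.14 (SE, adjusted p = 0.00585) from 2M to 4M. Its 3 NOD.H-2b mice were all above BALB/c at 2M and all below it at 4M and 6M. Dhcr7 changed by -0.54 ± 0.17 (SE, adjusted p = 0.035) and Cyp51 by -0.48 ± 0.15 (SE, adjusted p = 0.0374), both with a called difference at 2M that was not called at 6M. The remaining changes were -0.65 ± 0.21 (SE, adjusted p = 0.0498) for Insig1, -0.55 ± 0.16 (SE, adjusted p = 0.0266) for Srebf1, -0.41 ± 0.13 (SE, adjusted p = 0.0383) for Hmgcs1 and -0.37 ± 0.11 (SE, adjusted p = 0.0255) for Scap.

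In NOD.H-2b the epithelial structure genes summed to 3142 to 3497 CPM at 2M and 2023 to 2461 at 6M, and the macrophage markers to 266 to 286 CPM and 378 to 494. Their part in these changes was not tested.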

How the results depend on the processing

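No member called at an age changed sign with DESeq2 size factors, upper quartile scaling, either filter, DESeq2's Wald test, the replicate block, 1 fit of all 18 mice or without any 1 mouse. With at least 2-fold required, members called were 8 higher and 0 lower at 2M, 6 and 0 at 4M, and 1 lower at 6M, 9 for the strain average, 2 and 1 for strain by age from 2M to 6M and to 4M, 0 in BALB/c for 2M against 4M and against 6M, and 1 and 4 in NOD.H-2b. Scaled to epithelial genes, 1 member was lower at 4M and 3 at 6M, 2 were called in BALB/c (4M against 6M), and 10 for strain by age from 2M to 4M. With no filter, BALB/c had 1 call for 4M against 6M and 7 for 2M against 6M, and with DESeq2 1 and 6. The single fit of 18 mice called 1 in NOD.H-2b for 4M against 6M.

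Members that were called under either scaling and turned sign did so with epithelial scaling alone. These were Ebp (0.068), Scap (0.059) and Abca1 (0.39) at 4M, and Ebp (0.0074) and Scap (0.14) at 6M. For NOD.H-2b between 2M and 6M they were Hmgcs1 (0.065), Fdps (0.0095), Fdft1 (0.023), Cyp51 (0.37), Msmo1 (0.23), Nsdhl (0.48), Ebp (0.43), Sc5d (0.24), Srebf1 (0.39) and Soat1 (0.36). For the strain average they were Tm7sf2 (0.035), Msmo1 (0.23), Nsdhl (0.18), Dhcr7 (0.24), Scap (0.036) and Abca1 (0.31), and for strain by age from 2M to 6M Hmgcs1 (0.15), Lss (0.51), Cyp51 (0.10), Ebp (0.46), Dhcr7 (0.039), Srebf1 (0.027) and Scap (0.20). This scaling shifts the median of all genes by construction where epithelial genes are lower. That median was 0.56 for NOD.H-2b from 2M to 6M, 0.29 for the strain average and 0.55 for strain by age from 2M to 6M. The strain average of Tm7sf2 was also not called with DESeq2 size factors, without the filter or with at least 10 counts.

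Leaving out 1 mouse gave 14 to 15 members higher and 5 to 7 lower at 2M, 11 to 13 and 8 to 9 at 4M, and 11 to 12 and 10 to 11 at 6M. It gave 26 to 27 for the strain average, 3 to 13 and 2 to 2 for strain by age from 2M to 6M and to 4M, 3 to 7 (2M against 4M), 0 to 0 (4M against 6M) and 1 to 5 (2M against 6M) in BALB/c, and 5 to 12, 0 to 0 and 14 to 19 in NOD.H-2b.

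Same-numbered mice did not deviate together (correlations of -0.42 to 0.43 and not above 0.1 in every pair of any comparison), so the replicate numbers were not taken to pair mice. With the replicate block, members called were 4 (2M against 4M) and 5 (2M against 6M) in BALB/c and 6 (2M against 4M) and 1 (4M against 6M) in NOD.H-2b, and counts between strains stayed within 1.5 times. With 3 mice a group, small differences are beyond reach, and Hsd17b7 in BALB/c rests on 4 to 20 reads per mouse.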
